A study of Mus musculus with 10 samples.

Results

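The probes along mouse chromosome 15, the chromosome that carries Myc, were followed across 10 one-colour arrays of B-cell leukemias and pro-B cells. A member was any non-control probe that the scanner files place on chromosome 15 of the mm9 build, other than the 3 probes named Myc, and 1527 of 41174 non-control probes met this rule. They span positions 3230418 to 103393398. Of these, 859 probes (56.3%, against 54.5% on the other autosomes) were well above background on both arrays of at least 1 group and were kept; they stand for 563 names, 477 of which are gene symbols. A further 515 members were well above background on no array, and 516 were so on all 10.

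The groups were these. Leukemic cells came from the lymph nodes of 3 mice, numbered 686, 713 and 760, that were heterozygous for both Ebf1 and Pax5 (Ebf1+/- Pax5+/-, called dHet), with 2 arrays a mouse. dHet pro-B cells (2 arrays) were grown from c-Kit positive fetal liver cells on OP9 stromal feeder cells with interleukin 7, Flt3 ligand and stem cell factor, so they were cultured, while the leukemic cells were not described as cultured. Wild-type pro-B cells (fraction B and C, 2 arrays) were sorted from control mice. The labels give no ages and do not say whether the 2 arrays of a mouse or of a pro-B group came from separate preparations. P-values between single leukemias, or between the pro-B groups, therefore measure the spread between such arrays, which may be technical. Those for leukemias against pro-B cells draw on the spread among the 3 mice and also between the 2 arrays of each pro-B group. This second part may be technical as well. The B-cell precursor markers Cd79a, Cd79b, Vpreb1, Igll1 and Blnk were well above background on every array of every group.

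Myc encodes a transcription factor that drives cell growth and division and is a common target of translocation or amplification in B-cell tumours. Extra copies of chromosome 15 are a recurrent finding in mouse lymphoid tumours. A gain of a whole chromosome tends to raise the RNA of many of its genes by a modest, similar amount, whereas a local rearrangement can change the few genes next to the breakpoint. Expression arrays measure RNA, and gene copy number was not measured here.

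The array reads each gene through probes of 60 bases. The first 30 bases of 8 probes are shown, 5′ to 3′ and in lower case throughout. These genes flank Myc or carry the differences described below. Trib1 and Lratd2 lie before Myc on the chromosome, Cyrib and Asap1 after it. Eif3h and Ly6a stand for a small and a large difference in leukemia 713. Gtsf1 is well above background in the leukemias only, and Itgb7 is well above background in all groups but dHet pro-B cells.
Trib1: atctttaagggctatgcctagggagactac
Lratd2: ttaatttgattggcagttgtatgttaaatc
Cyrib: ctcctgcatggcgaaactgcctattctgct
Asap1: aagtgttcagttactcgtgttattccttca
Eif3h: ttgagtagacagactgttgagaggccacag
Ly6a: tatgagttatagaagctccaaggtgggagt
Itgb7: atttttcagagtgaccttcagagggcagca
Gtsf1: ttttcaaatgccagactgtggaagactctt
In mm9 the Trib1 probe lies at chr15:59487662-59487721 on the plus strand. The other 7 lie on the minus strand, Lratd2 at chr15:60650951-60651010, Cyrib at chr15:63762767-63762826, Asap1 at chr15:63920426-63920485, Eif3h at chr15:51618190-51618249, Ly6a at chr15:74825553-74825612, Itgb7 at chr15:102046450-102046509 and Gtsf1 at chr15:103232937-103235246, an interval longer than the probe.

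Values are levels, that is, log2 of the processed signal minus the array's 75th percentile. The relative level of a chromosome or window on an array is the median over its kept probes of each probe's level minus that probe's mean over the 5 groups, less the same median over the other autosomes. Because each probe is set against its mean over the groups, a high value in 1 group lowers the others slightly, and differences between groups do not carry this offset.

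Leukemia 713 had a higher median level over the probes of chromosome 15 than the other leukemias and the pro-B cells. Its relative levels were 0.34 and 0.40 on its 2 arrays. Those of leukemia 686 were -0.05 and -0.12, and those of leukemia 760 were -0.12 and -0.14. The dHet pro-B arrays were both at -0.09, and the wild-type pro-B arrays were at -0.11 and -0.12. The 2 arrays of leukemia 713 thus stood above the other 8, with no overlap, and above every other autosome on any array, since those lay between -0.14 and 0.17.

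**Figure D1:**
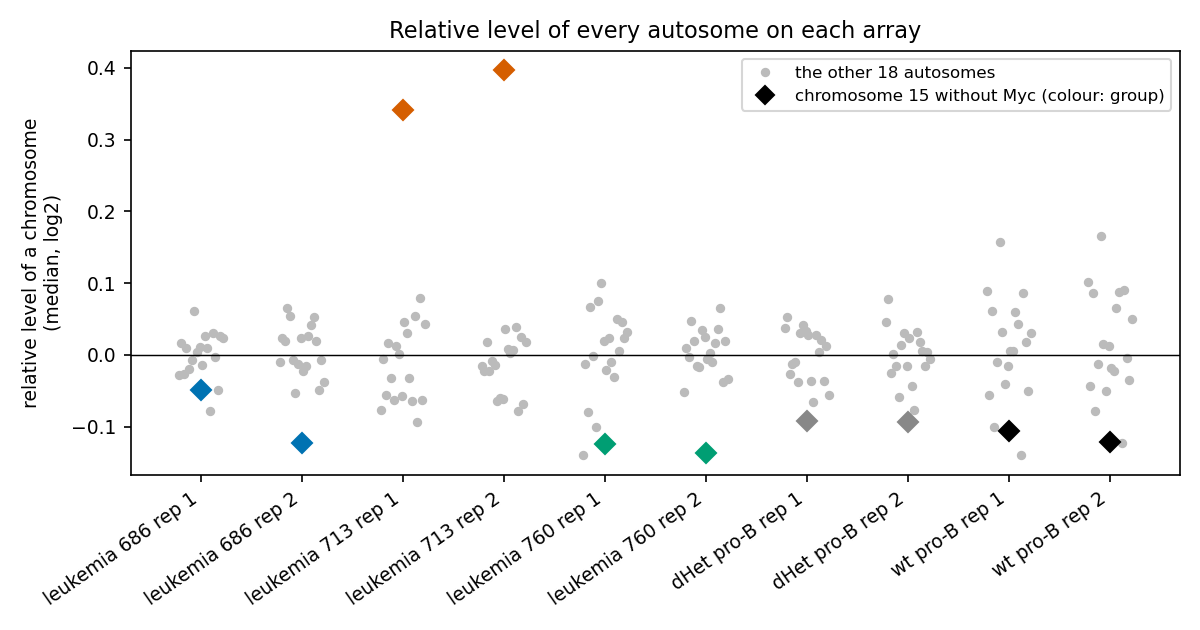
Relative level (log2, vertical axis) of each autosome on each of the 10 arrays (horizontal axis); coloured diamonds are chromosome 15 without Myc and grey points the other 18 autosomes. Chromosome 15 lies at 0.34 and 0.40 on the arrays of leukemia 713 and between -0.14 and -0.05 on the other 8.

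Leukemia 713 minus the mean of the other 2 leukemias was 0.48 for chromosome 15, a ratio of 1.39. The same difference for the other autosomes ran from -0.11 to 0.07, so chromosome 15 was first of 19. For scale, a ratio of 3 to 2 is 0.58 on the log2 scale. The value was 0.46 against leukemia 686 alone, 0.50 against leukemia 760 alone, 0.48 against wild-type and 0.46 against dHet pro-B cells. Leukemias 686 and 760 differed from each other by 0.04. Each slide that held leukemias held 1 array of each mouse, and the within-slide values were 0.43 on slide 1 and 0.53 on slide 2. Chromosome 15 stayed first of 19 under each scaling, background and filter alternative run, at 0.25 in the authors' value table, 0.34 without a filter on dim probes and 0.35 after normexp background correction.

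The difference was spread over most probes rather than held by a few. The quartiles of the kept probes were 0.11, 0.44 and 0.83, against -0.31, 0.00 and 0.33 on the other autosomes. Of the chromosome 15 probes, 79.3% lay above the median of the other autosomes; on each other autosome the share was between 41.3% and 56.3%. Probes in the dimmest, middle and brightest class of 3 gave relative differences of 0.43, 0.43 and 0.48, and the 516 probes detected on all arrays gave 0.44. Here each class was set against all kept probes of the other autosomes. Against other-autosome probes also detected on all arrays, the 516 gave 0.46. Both arrays of leukemia 713 exceeded all 4 arrays of the other leukemias at 329 of 859 probes (38.3%), while 14.2% of all probes did so. The corresponding counts were 21 for leukemia 686 (2.44%, background 5.63%) and 45 for leukemia 760 (5.24%, background 10.1%).

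**Figure D2:**
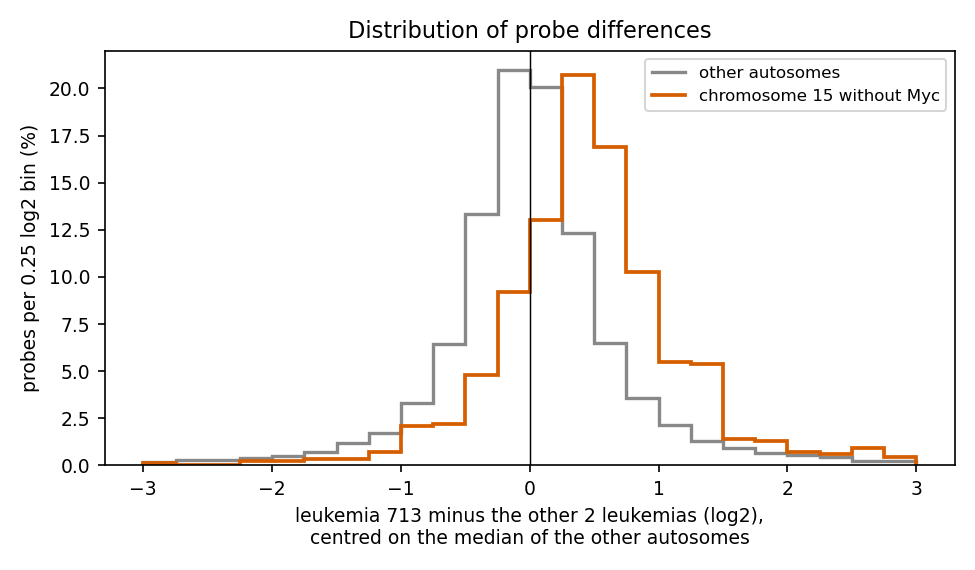
Share of probes (%, vertical axis) per 0.25 log2 bin of leukemia 713 minus the mean of leukemias 686 and 760 (horizontal axis), centred on the median of the other autosomes, for chromosome 15 without Myc (orange, 859 probes) and the other autosomes (grey, 20372 probes). The chromosome 15 curve is moved to the right, with a median of 0.44; the 2.68% and 1.59% of probes beyond 3 are not drawn.

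In the limma fit over all 22300 kept probes, 154 members (17.9%) were called higher in leukemia 713 than in the other 2 at an adjusted p under 0.05, where 7.1% of all probes were. Only 17 members (1.98%) were called lower, where 5.13% of all probes were. On the other autosomes between 4.82% and 9.13% of probes were called higher. For leukemia 686 against the other 2, 5 members (0.58%, background 1.21%) were called higher and 19 (2.21%, background 1.75%) lower. For leukemia 760 these counts were 20 (2.33%, background 4.31%) and 81 (9.43%, background 5.34%). Scaling each array to its median changed those splits to 2 higher and 26 lower for leukemia 686 and to 26 and 44 for leukemia 760. In both contrasts the reference includes leukemia 713. Against wild-type pro-B cells the relative level of the chromosome differed by 0.03 in leukemia 686 and by -0.02 in leukemia 760. The count of 154 fell to 86 without the first and 72 without the second array of leukemia 713, to 62 without the filter and to 24 after normexp, and it rose to 354 with the slide as a random block.

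Most windows along the chromosome were higher in leukemia 713. Chromosome 15 holds 18 windows of 5 Mb with at least 5 kept probes, and leukemia 713 was above the other leukemias in 18 of 18, by 0.01 to 0.81 with a median of 0.49; of the windows on the other autosomes, 40.4% were above 0. The limma fit over all 469 autosomal windows called 12 of the 18 higher and 0 lower, where 5.54% of all windows were called higher and 7.25% lower. At an unadjusted p under 0.05, 14 were higher and 0 lower. The highest windows were 70 to 75 Mb (0.81, SE 0.11, adjusted p = 0.0021), 65 to 70 Mb (0.73, SE 0.06) and 55 to 60 Mb (0.72, SE 0.10), and the lowest were 25 to 30 Mb (0.01, SE 0.11, 13 probes) and 30 to 35 Mb (0.12, SE 0.13, 37 probes). Probes before Myc gave 0.41 and those after it 0.50. Leaving out 1 array at a time gave 11 to 13 called windows, whereas 1 was called after normexp and 0 without the filter; the count above 0 was 15 of 18 after normexp, 17 of 18 with quantile normalization, with means in place of medians or with windows shifted by 2.5 Mb, and 14 of 21 without the filter. With means and with shifted windows 13 windows were called higher and 1 lower, and the lowest value was -0.48 and -0.64, respectively.

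**Figure D3:**
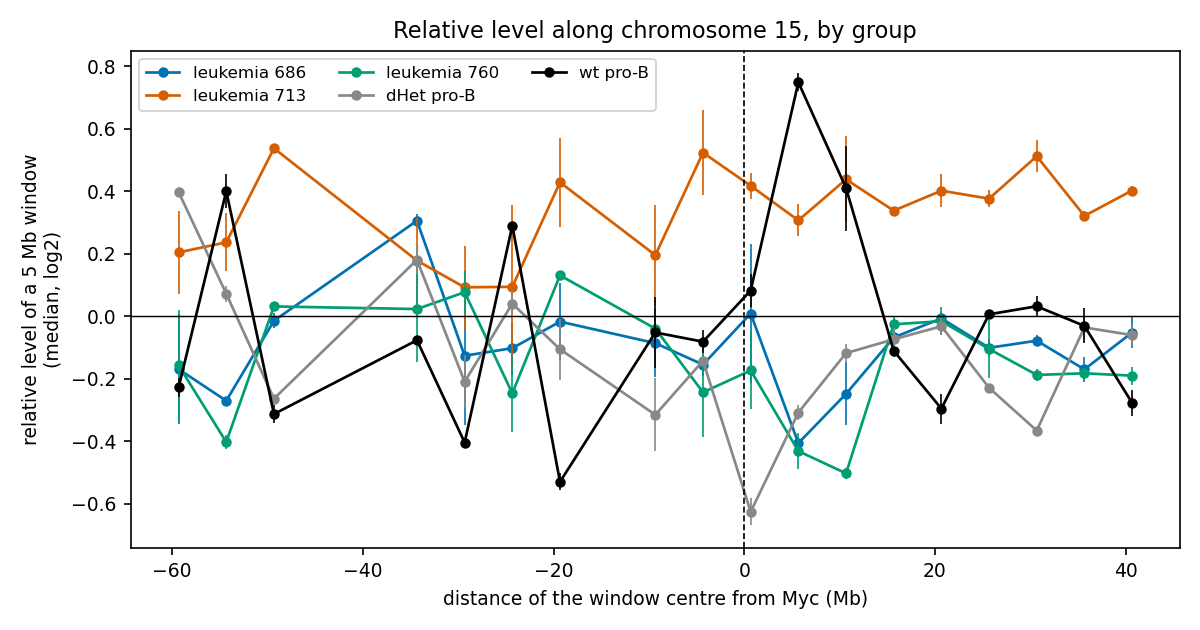
Relative level (log2) of 5 Mb windows of chromosome 15 against the distance of the window centre from Myc (Mb, dashed line at 0); points are means of a group's 2 arrays, vertical bars join the 2 arrays, and windows with under 5 kept probes are not drawn. Leukemia 713 (orange) lies above leukemias 686 and 760 along nearly the whole chromosome, while the pro-B groups vary from window to window.

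Neither other leukemia had a window called higher. In leukemia 686, 2 of 18 windows were called lower (background 1.07%) and 0 higher (background 1.49%). In leukemia 760, 8 were called lower (background 4.9%) and 0 higher (background 3.62%). At an unadjusted limma p under 0.05, 0 windows were higher in either, and 11 and 12 were lower. These contrasts share arrays with the one for leukemia 713.

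The highest window holds the Ly6 cluster, a family of small GPI-anchored surface proteins that mark lymphoid and stem cells. Of 11 measured members of the family, 7 rose in leukemia 713 against the other leukemias and 0 fell, with a median difference in level of 1.90; over all 563 names 108 rose, 14 fell and the median was 0.40. Ly6a, which encodes the stem cell antigen Sca-1, had levels of 6.27 and 5.67 in leukemia 713, 2.98 and 1.64 in leukemia 686, 2.46 and 1.42 in leukemia 760, 3.05 and 3.40 in dHet pro-B and 1.39 and 1.48 in wild-type pro-B cells. Both leukemia 713 arrays were above the other 8, and the difference from the other leukemias was 3.84 (SE 0.44, adjusted p = 0.00226). Ly6c2, which encodes a form of the monocyte and lymphocyte antigen Ly6C, differed by 3.31 (SE 0.33) and Ly6i by 3.58 (SE 0.39). Without the family the window stood at 0.47 and the whole chromosome at 0.47, so the chromosome-wide value hardly moved. Ly6k is counted among the 7, but it was well above background on 1 array of leukemia 713 and on none of the other leukemias, so no fold is given.

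Ly6d, which marks B-lymphoid progenitors, was at 7.83 and 7.79 in leukemia 713. It was at 5.19 and 4.28 in leukemia 686, 6.14 and 5.66 in leukemia 760, 6.47 and 6.69 in dHet pro-B and 8.18 and 8.02 in wild-type pro-B cells. Leukemia 713 was therefore above the other leukemias by 2.49 (SE 0.28, adjusted p = 0.00202), yet below both wild-type arrays. Ly6e, at 7.63 and 6.96 in leukemia 713, and Ly6m did not pass the test, and Ly6m was the lowest of the family at -0.28.

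Among cytokine receptors, 4 of 6 measured genes rose in leukemia 713 and 0 fell, with a median of 1.42. Csf2rb2, the mouse interleukin 3 receptor beta chain, was at 3.12 and 3.06 there, at 0.90 and 1.26 in leukemia 686 and at 1.58 and 1.58 in leukemia 760, a difference of 1.76 (SE 0.15, adjusted p = 0.000999). Csf2rb, the beta chain shared by the receptors for interleukin 3, interleukin 5 and GM-CSF, differed by 1.35 (SE 0.19). Tnfrsf13c, the receptor for the B-cell survival factor BAFF, was at 5.06 and 5.34 in leukemia 713, between 3.39 and 4.06 in the other leukemias, at 1.33 and 1.41 in dHet pro-B and at 5.09 in both wild-type arrays; leukemia 713 exceeded the other leukemias by 1.49 (SE 0.16, adjusted p = 0.00179; 0.0977 after normexp). Lifr, a receptor subunit for leukemia inhibitory factor, differed by 3.07 (SE 0.60) and was well above background on 1 of the 4 arrays of the other leukemias. Il7r, the interleukin 7 receptor on which pro-B cells depend, was 0.28 higher (SE 0.20, adjusted p = 0.471) and did not pass.

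For lymphocyte signalling and adhesion genes, 6 of 23 rose in leukemia 713 and 1 fell, with a median of 0.69. Itgb7, the beta 7 integrin chain of gut-homing lymphocytes, was at 3.44 and 3.11 in leukemia 713, at 0.93 and 0.31 in leukemia 686 and at -0.61 and -1.41 in leukemia 760, a difference of 3.47 (SE 0.29, adjusted p = 0.000899). The others that rose were Trib1, Cyth4 (1.64, SE 0.14), Apobec3 (1.37, SE 0.17), Sla (1.26, SE 0.32) and Fyb (1.13, SE 0.16), an adaptor of lymphocyte integrin signalling. Ndrg1, a stress-responsive gene, fell by 0.90 on the log2 scale (SE 0.15). For Fyb and Ndrg1 leukemia 713 lay close to leukemia 686 and apart from leukemia 760: Ndrg1 was at 0.71 and 0.62 in leukemia 713, 0.68 and 0.66 in leukemia 686 and 2.47 and 2.45 in leukemia 760.

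Most genes of the translation, cell cycle and metabolism lists did not pass the test in leukemia 713. Of 21 translation genes 20 lay above 0 with a median of 0.36; 2 rose, Dnajc21 (1.01, SE 0.26) and Pfdn5 (0.79, SE 0.18), and 0 fell. Eif3h, a subunit of translation initiation factor 3, was at 8.07 and 7.77 in leukemia 713, 7.58 and 7.16 in leukemia 686 and 7.59 and 7.13 in leukemia 760, a difference of 0.55 (SE 0.21, adjusted p = 0.144). Rpl8, a ribosomal protein, differed by 0.47 (SE 0.20, adjusted p = 0.188), and Rpl3, the lowest of the group, by -0.11. Of 19 cell cycle and genome maintenance genes 13 lay above 0 (median 0.37); 3 rose, Tuba1a (1.36, SE 0.25), Racgap1 (1.06, SE 0.24) and Tuba1c (0.99, SE 0.21), and 0 fell. Rad21, a cohesin subunit, differed by 0.48 (SE 0.27, adjusted p = 0.335). Of 21 metabolic genes 1 rose, Ndufb9 of respiratory complex I (0.96, SE 0.19), 0 fell, and the median was 0.28. At an unadjusted limma p under 0.05, 0 genes of the Ly6, receptor, translation, cell cycle and metabolism lists were lower in leukemia 713.

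Of 25 transcription and chromatin genes 6 rose in leukemia 713 and 0 fell in the limma fit (4 were lower at an unadjusted p under 0.05), with a median of 0.51. Hoxc9, a homeobox gene, had the largest value (3.06, SE 0.22), at -2.33 and -2.22 in leukemia 713 and well above background on 1 array of leukemia 686 and none of leukemia 760. Maff, a small basic leucine zipper factor, was well above background on no array of the other leukemias and was at least 4.11-fold higher in leukemia 713. The remaining 4 were Cbx6 (1.09, SE 0.24), Phf20l1 (1.03, SE 0.20), Atf7 (0.95, SE 0.17) and Ep300 (0.92, SE 0.23), the histone acetyltransferase p300. Where a probe was not well above background on any array of a side, the fold is a bound, set by the lowest signal among probes well above background on those arrays.

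Among the genes with the highest fitted differences in leukemia 713, which for probes at background have no order, were Glycam1, an endothelial mucin and L-selectin ligand (at least 9.34-fold), Snhg18, a small nucleolar RNA host gene (at least 4.83-fold), and Fkbp11, an endoplasmic reticulum prolyl isomerase (4.28 log2, SE 0.44, adjusted p = 0.00168). Among the lowest were Myo10, an unconventional myosin of filopodia (at least 12.5-fold lower), Odf3b (fell by 3.37 on the log2 scale, SE 0.48) and Arhgap39, which was well above background on no array of leukemia 713 and on 3 of 4 of the others. Myo10 lies in the lowest window, in which no other gene changed more, and Ly6a showed the largest change in the highest window. Deptor, an inhibitor of mTOR, and Mtss1, an actin-binding membrane protein, differed by 2.68 (SE 0.14) and 2.66 (SE 0.15); these 2 were picked after their values were seen.

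**Figure D4:**
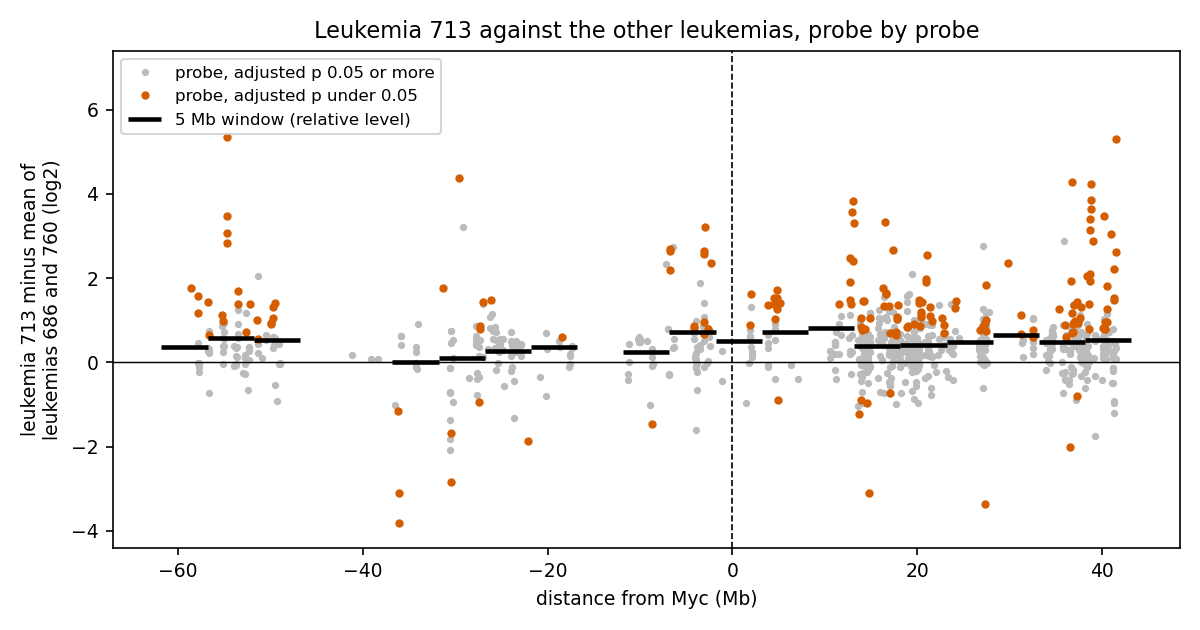
Leukemia 713 minus the mean of leukemias 686 and 760 (log2) for the 859 kept probes against their distance from Myc (Mb); orange probes have an adjusted p under 0.05, and black bars are the relative difference of 5 Mb windows. Probes called higher (154) lie along the chromosome on both sides of Myc, and the bars run from 0.01 to 0.81.

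Markers of other cells also moved in leukemia 713. Of 4 measured T-cell markers 2 were called higher than in the other leukemias (Cd2 and Cd5). Cd3d and Cd3e were not called (limma adjusted p = 0.52 and 0.392). The summed level of the list was 4.44 to 4.46 in leukemia 713, 1.48 to 2.31 in leukemia 686 and 1.15 to 1.74 in leukemia 760. It was 2.70 to 2.97 in wild-type and 0.43 to 0.97 in dHet pro-B cells. Cd2 was at 3.98 and 4.12 in leukemia 713, but also at 2.78 and 2.45 in the sorted wild-type pro-B cells. Of 5 natural killer and cytotoxic markers 1 was called higher (Klrb1c) and 1 lower (Nkg7), with summed levels of 2.51 to 2.68 in leukemia 713, 1.997 to 2.60 in leukemia 686 and 4.60 to 5.35 in leukemia 760. Of 6 myeloid markers 1 was called higher (Itgam), with 5.67 to 5.68, 6.56 to 7.01 and 3.61 to 3.82 in leukemias 713, 686 and 760. Of 2 erythroid markers 1 was called higher (Hba-a1), with 5.78 to 6.45, 0.08 to 2.58 and 4.06 to 4.93. None of 3 stromal and endothelial markers was called, with 0.41 to 1.09, -0.13 to 0.46 and 0.06 to 0.18. In whole samples a greater number of cells of a type and more RNA per cell cannot be told apart, and the part of these cells in the difference was not tested.

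Myc itself did not follow the chromosome in leukemia 713. Its 3 probes were higher in the leukemias than in wild-type pro-B cells by 3.40, 3.67 and 3.09 and higher than in dHet pro-B cells by 4.67, 4.88 and 4.28. Among the leukemias, the first probe was at 4.41 and 3.68 in leukemia 713, 5.06 and 4.82 in leukemia 686 and 5.32 and 4.77 in leukemia 760. Leukemia 713 was the lowest of the 3 on each probe, by -0.95 (SE 0.28, adjusted p = 0.073), -1.02 (SE 0.23, adjusted p = 0.0318) and -0.85 (SE 0.21, adjusted p = 0.0434) against the mean of the other 2.

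The local question is whether the genes next to Myc stand apart. In the 60 to 65 Mb window, 14 kept probes around Myc gave relative levels of 0.46 and 0.38 in leukemia 713, 0.23 and -0.21 in leukemia 686, -0.05 and -0.30 in leukemia 760, -0.67 and -0.58 in dHet pro-B and 0.14 and 0.03 in wild-type pro-B cells. The arrays of leukemia 713 lay above the other 8 and the dHet pro-B arrays below the other 8. Leukemias minus wild-type was 0.00 (adjusted p = 0.991) and leukemias minus dHet pro-B was 0.71 (adjusted p = 0.0176, rank 5 of 469 windows). dHet minus wild-type was -0.71, with dHet cells below wild-type by the same amount as below the leukemias. The difference of 0.71 was 0.11 after normexp, 0.23 in the authors' value table and 0.03 with the window shifted by 2.5 Mb. Leukemia 713 minus the other leukemias was 0.50 in this window (SE 0.12, adjusted p = 0.0324), near the chromosome's 0.48, and was -0.05 after normexp.

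**Figure D5:**
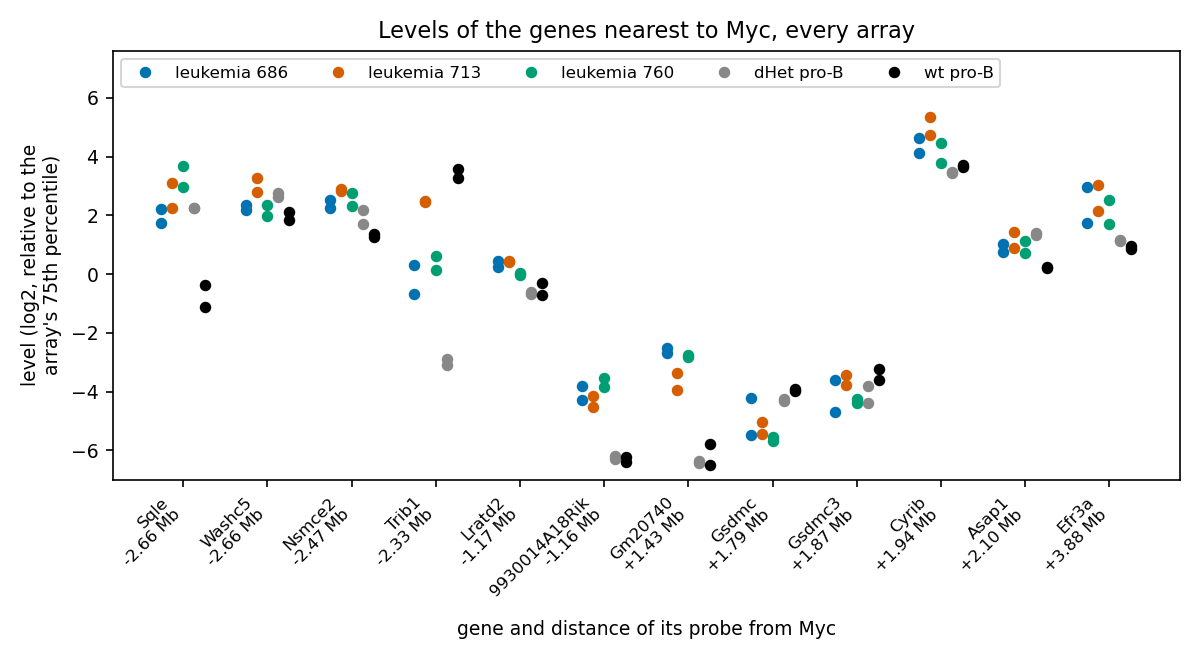
Levels (log2 of the processed signal relative to the array's 75th percentile) of the 6 named genes with a kept probe nearest to Myc on each side, ordered by distance from Myc (Mb); each point is 1 array and colours are groups. Gm20740 and 9930014A18Rik are well above background on no pro-B array, and Trib1 is lowest in dHet pro-B cells.

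Single neighbours of Myc moved in different ways. On the side before Myc, Trib1, which encodes a pseudokinase that recruits a ubiquitin ligase, was at 2.49 and 2.44 in leukemia 713, 0.32 and -0.67 in leukemia 686, 0.63 and 0.16 in leukemia 760, -3.09 and -2.88 in dHet pro-B and 3.57 and 3.27 in wild-type pro-B cells. The leukemias were lower than wild-type by -2.53 (SE 0.75, adjusted p = 0.0302) and higher than dHet cells by 3.88 (SE 0.75, adjusted p = 0.00912), and leukemia 713 exceeded the other 2 by 2.36 (SE 0.29). Lratd2 was at 0.24 and 0.44 in leukemia 686, 0.42 and 0.45 in leukemia 713, -0.02 and 0.03 in leukemia 760, and between -0.71 and -0.30 in the pro-B cells. All 6 leukemia arrays were above all 4 pro-B arrays, by 0.77 (SE 0.20) over wild-type and 0.90 (SE 0.20) over dHet cells. The noncoding 9930014A18Rik passed the background criterion on 4 leukemia arrays out of 6 and on no pro-B array, and no fold is given for it.

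After Myc, Gm20740 passed that criterion on 5 leukemia arrays out of 6, with levels between -3.95 and -2.50 over all 6, and on no pro-B array; no fold is given for it either. Cyrib, which binds the GTPase RAC1 and restrains actin branching, was at 4.63 and 4.14 in leukemia 686, 5.33 and 4.74 in leukemia 713, 4.47 and 3.77 in leukemia 760, 3.44 and 3.48 in dHet and 3.66 and 3.73 in wild-type pro-B cells. Its leukemia arrays lay above all pro-B arrays, by 0.82 (SE 0.27, adjusted p = 0.0436) and 1.05 (SE 0.27); 2 other probes of Cyrib went the opposite way against wild-type, so its direction is uncertain. Asap1, an ARF GTPase regulator, was higher in the leukemias than in wild-type cells by 0.78 (SE 0.14) and differed from dHet cells by -0.38 (adjusted p = 0.0609). Efr3a and Nsmce2 were called higher in leukemias than in wild-type cells, each with 2 other probes called lower. No probe of Pvt1, the noncoding neighbour of Myc, was among those kept.

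For the chromosome as a whole, leukemias and pro-B cells differed little once leukemia 713 was set aside. Leukemias minus wild-type was 0.16 and leukemias minus dHet pro-B was 0.14; without leukemia 713 these were 0.01 and -0.01. dHet minus wild-type was 0.02. Leukemia and pro-B arrays were on separate slides, and within these comparisons a slide effect cannot be told apart from one of the group.

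Against wild-type pro-B cells, 239 members (27.8%) were higher in the leukemias and 211 (24.6%) lower, where 27.7% and 31% of all probes were. Scaling by the array median gave 354 higher and 141 lower, scaling by the percentile over probes detected on all arrays gave 172 and 295, and the 516 probes detected on all arrays gave 218 and 56. Against dHet pro-B cells, 181 (21.1%) were higher and 150 (17.5%) lower, where 19.3% and 27.4% of all probes were. Those splits were 184 and 96, 151 and 196, and 151 and 79 under the same settings, in the same order. Without leukemia 713 the calls in either direction numbered 535 against wild-type and 443 against dHet cells, in place of 450 and 331. Of these, 245 were higher and 290 lower than wild-type, and 186 higher and 257 lower than dHet cells. Shares over all probes are not given for this setting, so the splits cannot be read as particular to chromosome 15. With all leukemias in the fit, more of all probes were called lower than higher in both comparisons. Of the 18 windows, 4 were called higher and 3 lower than wild-type (background 23.9% and 26.4%), and 1 higher and 1 lower than dHet cells (background 16.2% and 15.8%).

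Against wild-type cells, genes called in the translation, cell cycle and metabolism lists all moved upward. Over the whole chromosome, however, the difference from wild-type rose with brightness. Probes in the dimmest, middle and brightest class of 3 gave relative differences of -0.95, 0.21 and 0.55. Each class was set against all kept probes of the other autosomes, not against those of like brightness. The 516 probes detected on all arrays gave 0.47 in this way. Against other-autosome probes also detected on all arrays they gave 0.12. Whether the rise with brightness is particular to chromosome 15 was not tested. Whether these lists differ from other genes of like brightness was not tested. Of 21 translation genes 14 rose and 0 fell (median 0.74, over all 563 names 0.23 with 175 risen and 130 fallen), led by Polr2f, a subunit shared by RNA polymerases (2.17, SE 0.17), and including Rpl3 (1.63, SE 0.13). Of 19 cell cycle genes 13 rose and 0 fell (median 1.01), led by Dscc1 of the alternative clamp loader (1.92, SE 0.20). Of 21 metabolic genes 11 rose and 0 fell (median 0.77). Sqle, the squalene epoxidase of cholesterol synthesis, led them at 2.23 and 1.74 in leukemia 686, 3.12 and 2.26 in leukemia 713, 3.67 and 2.96 in leukemia 760 and -0.38 and -1.11 in wild-type cells (3.40, SE 0.42, adjusted p = 0.0013). In these 3 lists 0 genes were lower than wild-type at an unadjusted limma p under 0.05. Sqle was at 2.26 on both dHet arrays, however, and the leukemias differed from these by 0.40 (adjusted p = 0.456). Against dHet cells, 6 translation, 6 cell cycle and 3 metabolic genes rose and 2, 1 and 1 fell.

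Of 25 transcription and chromatin genes, 3 rose and 7 fell against wild-type, with a median of -0.35. Nfe2 rose (3.22, SE 0.64), as did Cbx5, the heterochromatin protein HP1 alpha (1.84, SE 0.14). Nr4a1, an immediate early nuclear receptor, was at 5.00 and 4.73 in wild-type cells and between -1.02 and 3.20 in the leukemias, a difference of -3.56 (SE 0.58, adjusted p = 0.00332). Atf4, the transcription factor of the amino acid response, fell against wild-type by 0.61 on the log2 scale (SE 0.17) and was above dHet cells by 0.82. Of 23 lymphocyte signalling genes 6 rose and 2 fell against wild-type, and 13 rose and 0 fell (1 at an unadjusted limma p) against dHet cells (median 0.70, over all names 0.08 with 135 risen and 84 fallen).

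Several genes differed widely from wild-type cells. Gtsf1, which acts in the piRNA pathway of germ cells, was at 1.03 and 1.38 in leukemia 686, 1.01 and 1.25 in leukemia 713, 0.19 and 0.13 in leukemia 760 and not well above background in any pro-B array; it was at least 30.7-fold higher than wild-type and at least 29.6-fold higher than dHet cells. Il2rb, a chain of the interleukin 2 and 15 receptors, was at least 7.41-fold and at least 7.15-fold higher, and Cyp2d22 at least 7.09-fold and 6.84-fold. C1qtnf6 (4.66, SE 1.07), Slc4a8, a bicarbonate transporter (4.03, SE 1.33), Adcy6, an adenylyl cyclase (3.63, SE 0.72), and Celsr1, an adhesion receptor of planar polarity (3.51, SE 0.86), were also higher than wild-type but varied widely among the 3 mice. Slc4a8, for one, was at 5.24 and 4.85 in leukemia 713 and between -0.13 and 1.83 in the other leukemias.

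Lower in the leukemias than in wild-type cells were Ankrd33b (fell by 5.30 on the log2 scale, SE 0.71) and Pdzd2 (fell by 4.47, SE 0.37). Capsl fell by 3.73 (SE 0.35). Ly6k was also called lower, but it was not well above background on most leukemia arrays, so no fold is given. Laptm4b, a lysosomal membrane protein, and the keratins Krt7 and Krt18 were at least 5.12-fold, 3.44-fold and 3.24-fold lower, since no leukemia array was well above background for them.

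Against dHet cells, Slc4a8 was at least 76.9-fold higher, Galnt6, a mucin glycosyltransferase, at least 19.9-fold, Odf3b at least 29.5-fold, Fyb at least 13.1-fold and Itgb7 at least 32-fold. Fyb and Itgb7 were well above background in wild-type cells too. Fyb was at 0.94 and 1.14 there and Itgb7 at 3.11 and 2.77, so that dHet cells were at least 34.2-fold and 126-fold below wild-type for these genes. Stk3, a Hippo pathway kinase (fell by 3.98, SE 0.47), Capsl (fell by 3.45, SE 0.35), Lima1, which bundles actin (fell by 3.44, SE 0.43), and Lalba (fell by 3.31, SE 0.26) were lower in the leukemias than in dHet cells, and Fbln1, a matrix protein, was at least 3.25-fold lower. Il7r was at 5.41 and 5.28 in dHet cells, 4.36 and 4.30 in wild-type cells and between 3.58 and 4.75 in the leukemias, lower than in dHet cells by -1.01 (SE 0.25, adjusted p = 0.0207). Tnfrsf13c was higher than in dHet cells by 2.84 (SE 0.49, adjusted p = 0.00619).

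Between the pro-B groups, 129 members were higher in dHet cells and 141 lower, where 13.9% and 13.2% of all probes were; the split was 85 and 175 with the percentile over probes detected on all arrays and 129 and 64 over the probes detected on all arrays. Of the 18 windows 4 were called higher and 6 lower (background 15.1% and 19.2%). The 65 to 70 Mb window had the lowest value, -1.06. Trib1 was lower in dHet cells by -6.41 (SE 0.34, adjusted p = 4.81e-05) and Tnfrsf13c by -3.72 (SE 0.18), while Sqle was higher (adjusted p = 0.00213), Mettl7a1 by 2.91 (SE 0.18) and Gcat, of threonine breakdown, by 2.85 (SE 0.20).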

How the data were processed

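Total RNA of 10 samples was labelled with Cy3 and hybridised to one-colour Agilent arrays, 1 array a sample, per the labels. The deposited scanner files hold intensities (gProcessedSignal, background-subtracted; Feature Extraction 10.5.1.1 per the file headers, while the submitters' processing notes name version 9.1) and place probes on mm9. The authors' value table of the series, used as an alternative, holds values that fit a log2 scale; its median is 6.83 to 6.85 on every array and its normalization is not given in the sources used here.

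Spots flagged as outliers were left out, spots of a probe were averaged on the log2 scale, and the 75th percentile over the array's probes was taken off. A probe was kept if well above background on both arrays of at least 1 group (22300 of 41174). The number of arrays limits precision. On single arrays 35.7% to 52.4% of probes were well above background, least on the first array of leukemia 686. Names came from accessions, symbols or synonyms in RefSeq's GRCm38.p6 table (686, 84 and 2 kept members) or the file (87).

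limma 3.58.1 (R 4.3.3) was fitted with Benjamini-Hochberg adjustment over all kept probes (threshold 0.05), to 7 values (the mean of each leukemic mouse, 4 pro-B arrays) for leukemias against pro-B cells, and to 10 arrays in 5 groups otherwise, and over 469 windows as features. The fits were also run on simulated data with independent noise on each array. Those data lacked the joint deviations of the leukemia arrays given below, so they do not test the fits in that respect. Slide 1 held the first and slide 2 the second array of each leukemia, slide 3 the 4 pro-B arrays; slides 2 and 3 share a scan day. Same-numbered arrays of the leukemias deviated together (correlations 0.54, 0.44 and 0.63). For the leukemias, replicate number, slide and scan day coincide, so their parts in this cannot be told apart.

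Members and gene lists were chosen with earlier results of these data known. A gene is given by its brightest kept probe. The genes named are the largest changes of each comparison, those nearest to Myc, the extremes of each list and of the highest and lowest window, and a fixed set (Il7r, Sqle, Pvt1, Ly6d, Rac2, Tnfrsf13c, Rad21, Atad2, Ep300, Xrcc6, Atf4); other list members were picked after their values were seen. Rac2 differed by 0.69, Atad2 by -0.08 and Xrcc6 by 0.43 between leukemia 713 and the other leukemias, none past the threshold.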

Additional observations from a re-analysis of the deposited data

Results flagged for a closer look

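A pair of results stood out because leukemia 713 differed from the other 2 leukemias under the same fit. Of 859 kept chromosome 15 probes, 154 were called higher in leukemia 713, and 12 of 18 windows were. No explanation was tested.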

How the results depend on the processing

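Chromosome 15 in leukemia 713 minus the other leukemias stayed positive under every alternative run: 0.48 in the report, 0.44 with quantile normalization or 1 probe per gene, 0.35 after normexp, 0.25 in the authors' value table, 0.34 without a filter, 0.53 with scan day 2 arrays only (chosen after seeing the data) and 0.45 to 0.51 with 1 array left out. The 12 windows called became 1 after normexp and 0 without a filter (limma; 7 at an unadjusted p under 0.05), and 11 to 13 with 1 array left out. The 154 probes became 24 after normexp, 62 without a filter, 354 with the slide as a random block, 383 with scan day as a block and 72 to 168 with 1 array left out. Slide as a random block and arrays as replicates leave the medians' values as they are and were not run for them.

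Of probes called in either direction, leukemias against wild-type gave 450, which became 267 after normexp, 274 over probes detected on all arrays, 281 with the slide block and 280 to 535 with 1 sample left out (449 without the second array of leukemia 713). Leukemias against dHet gave 331, which became 145 after normexp, 217 with 1 probe per gene, 158 with the slide block and 145 to 443 (332 without that array). dHet against wild-type gave 270, which became 23 after normexp, 118 without a filter, 440 with the slide block, 462 with scan day and 101 to 306. Leukemia 686 gave 24, which became 0 after normexp (4 higher and 29 lower at an unadjusted p), 44 in the value table, 1 without a filter, 118 with the slide block, 134 with scan day and 8 to 57. Leukemia 760 gave 101, which became 8 after normexp, 39 without a filter, 54 over probes detected on all arrays, 227 with the slide block, 250 with scan day and 48 to 134.

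Of windows called, leukemias against wild-type gave 7, which became 3 with quantile normalization, 2 after normexp, 1 without a filter, 4 over probes detected on all arrays, 11 with scan day, 2 with scan day 2 only, 4 with 10 Mb windows and 1 to 8 with 1 sample left out. Leukemias against dHet gave 2, which became 0 after normexp, without a filter and with 10 Mb windows (1 each at an unadjusted p), 4 in the value table and with shifted windows, 1 with 1 probe per gene, with scan day 2 only and with at least 10 probes, 9 with arrays as replicates, 5 with the slide block, 8 with scan day and 0 to 5. dHet against wild-type gave 10, which became 6 with quantile normalization and over probes detected on all arrays, 0 after normexp and without a filter (0 and 1 at an unadjusted p), 5 in the value table and with shifted windows, 2 with 1 probe per gene, 4 with 10 Mb windows and 2 to 10.

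The chromosome's value for the leukemias was 0.01 to 0.26 against wild-type and -0.01 to 0.24 against dHet with 1 sample left out. With means in place of medians it was -0.08 against wild-type, a change of sign, and 0.18 against dHet. For dHet minus wild-type (0.02) it was -0.042 with quantile normalization, -0.25 with means and 0.01 to 0.03 with 1 sample left out. The Myc window against wild-type (0.00) was 0.44 over probes detected on all arrays, -0.32 with means, -0.75 with 10 Mb windows and -0.16 to 0.13. Against dHet (0.71) it was 0.11 after normexp, 0.23 in the value table, 0.031 shifted and 0.54 to 0.84. For dHet minus wild-type (-0.71) it was -0.16, -0.09 and 0.0043 under those settings in the same order, -0.29 without a filter, -0.25 over probes detected on all arrays, -0.91 with means, -1.20 with 10 Mb windows and -0.76 to -0.66. For leukemia 713 (0.50) it was -0.052, 0.13 and 0.69 in that order, 0.29 without a filter and 0.39 to 0.61.

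The replicate number coincides with slide and scan day for the leukemias. With it as a block, leukemia 686 gave 39 called probes, and windows numbered 11 against wild-type and 9 against dHet. Cela1 in leukemia 760, lower by -3.30, was 0.11 after normexp. Of 177 named results 131 passed the threshold; normexp ended 62 of these calls, leaving out either dHet array 32 each and dropping the filter 29. The causes were not tested. Slide and group cannot be told apart for leukemias against pro-B cells, 1 leukemia is 1 mouse, and dim probes give bounds only.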
